A study of Mus musculus with 30 samples.

Results

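The metallothionein genes Mt1, Mt2 and Mt3, the metal-sensing transcription factor gene Mtf1 and the zinc transporter genes Slc30a1, Slc30a3 and Slc39a14 were followed in the spinal cord of mice recovering from a cortical stroke. The 7 genes were chosen by symbol, and all 7 were among the 16995 genes of the deposited expression table. Adult female C57BL/6 mice (C57BL/6J in the study's methods, 2 to 3 months old) received a photothrombotic stroke of the right sensorimotor cortex, made by Rose Bengal injection and illumination through the skull. Sham animals were operated without illumination. The intermediate laminae at C5/C6 were trimmed by hand from the hemicord that had lost its corticospinal input, after perfusion with Ringer's solution. Total RNA was depleted of ribosomal RNA and sequenced. Tissue was taken 4, 7, 14, 28 or 42 days post injury (dpi), with 4 animals at 4 dpi and 5 animals in every other group including sham, 29 animals in all. A further animal labelled 4 dpi has no values and was not analysed here. The study reports that animals were chosen for sequencing by quality scores. It also reports leaving a 4 dpi sample out as an outlier in its own test for differential expression. No transgene or deletion is named for any group.

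Metallothioneins are small cysteine-rich proteins that bind zinc and copper and buffer them in the cell. Mt1 and Mt2 are made in most tissues, in the central nervous system mainly by astrocytes and other glia, and they are induced by zinc, other metals, glucocorticoids and oxidative stress. Mt3 is the brain-enriched form, and it is less readily induced by metals. MTF1 senses free zinc, moves to metal response elements in promoters and activates Mt1, Mt2 and Slc30a1. SLC30 (ZnT) proteins carry zinc out of the cytosol, and SLC39 (ZIP) proteins carry it in. SLC30A1 is the exporter of the plasma membrane, SLC30A3 loads zinc into synaptic vesicles of glutamatergic neurons, and SLC39A14 imports zinc, iron and manganese.

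The promoters of the metallothionein genes and of Slc30a1 are shown because MTF1 is known to act through metal response elements in promoters of this kind. Sequences are from RefSeq (GRCm38.p6), 5′ to 3′ on the strand of the gene, from 250 bases before to 50 bases after the annotated start. Capitals mark the core of the metal response element, searched as TGCACNC and TGCGCNC on both strands. The windows are chr8:94178839-94179138 (+) for Mt1, chr8:94172368-94172667 (+) for Mt2, chr8:94152357-94152656 (+) for Mt3 and chr1:191906531-191906830 (+) for Slc30a1.
Mt1 promoter: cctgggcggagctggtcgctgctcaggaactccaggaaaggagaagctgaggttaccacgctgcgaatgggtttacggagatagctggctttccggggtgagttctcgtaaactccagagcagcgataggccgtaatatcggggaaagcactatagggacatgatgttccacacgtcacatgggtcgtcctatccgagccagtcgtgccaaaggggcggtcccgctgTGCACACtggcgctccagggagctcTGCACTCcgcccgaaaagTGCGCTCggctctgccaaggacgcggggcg
Mt2 promoter: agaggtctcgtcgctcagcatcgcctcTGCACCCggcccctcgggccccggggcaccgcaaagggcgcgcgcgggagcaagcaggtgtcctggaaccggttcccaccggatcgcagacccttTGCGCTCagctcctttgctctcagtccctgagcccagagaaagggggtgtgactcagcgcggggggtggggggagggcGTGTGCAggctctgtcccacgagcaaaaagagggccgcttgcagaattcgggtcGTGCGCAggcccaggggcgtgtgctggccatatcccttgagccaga
Mt3 promoter: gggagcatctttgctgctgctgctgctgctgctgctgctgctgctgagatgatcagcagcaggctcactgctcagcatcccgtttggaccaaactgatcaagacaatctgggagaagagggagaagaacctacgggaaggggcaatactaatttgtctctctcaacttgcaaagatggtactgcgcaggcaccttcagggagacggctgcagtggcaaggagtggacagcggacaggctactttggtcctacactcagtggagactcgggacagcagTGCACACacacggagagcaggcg
Slc30a1 promoter: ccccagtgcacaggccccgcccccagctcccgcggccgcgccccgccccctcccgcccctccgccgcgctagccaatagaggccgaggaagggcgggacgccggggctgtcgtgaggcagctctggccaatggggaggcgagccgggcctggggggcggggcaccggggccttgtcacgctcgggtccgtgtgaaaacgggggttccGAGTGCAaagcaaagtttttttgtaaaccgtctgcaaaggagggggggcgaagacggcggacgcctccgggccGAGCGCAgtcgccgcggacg
The Mt2 window held 4 matches, Mt1 held 3, Slc30a1 held 2 and Mt3 held 1, and no match overlapped another. Some of them begin after the annotated start, at +3 and +21 in Mt1, +5 in Mt2 and +31 in Slc30a1. The only Mt3 match begins at +28, so none lies before the start in that window. Of 32851 promoter windows of this length, 25.7% held at least 1 match, 7.11% at least 2, 1.97% at least 3 and 0.517% at least 4. The Mtf1 window (chr4:124802299-124802598, +) held 0 matches, and the Slc30a3 windows held 1 (chr5:31108195-31108494, -) and 0 (chr5:31093478-31093777, -). A match of these letters is a description of the sequence and not a measured binding site. Slc39a14 had no entry among the promoter windows used here.

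Mt1, Mt2 and Mt3 lie in a cluster on chr8, all on the + strand. In mm10 coordinates Mt3 occupies chr8:94152607-94154146, Mt2 chr8:94172664-94173568 and Mt1 chr8:94179082-94180327. Their main transcripts in GENCODE M21 are among the short ones, with 536 nt for Mt3, 511 nt for Mt2 and 549 nt for Mt1. Mtf1 lies at chr4:124802104-124849800 (+), Slc30a1 at chr1:191906767-191913247 (+), Slc30a3 at chr5:31086106-31108237 (-) and Slc39a14 at chr14:70303469-70351425 (-). Their main transcripts are longer, with 7631 nt for Mtf1, 5244 nt for Slc30a1, 2089 nt for Slc30a3 and 4926 nt for Slc39a14. The 3 metallothionein genes share no 31-base word with each other, so reads of these genes can be told apart by sequence. The library kit did not mark the strand, and an antisense gene overlaps Mt2 (Gm45774) and Slc30a1 (1700034H15Rik). Genes on the opposite strand also overlap Mtf1 (1110065P20Rik) and Slc30a3 (Gm9924 and Dnajc5g), and an rRNA gene (n-R5s192) overlaps Mtf1 on its own strand. Reads from such pairs cannot be told apart where they overlap. Of these overlapping genes only 1700034H15Rik and 1110065P20Rik were among the genes analysed.

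The deposited values are CPM, read numbers scaled to library size, normalized by the authors with edgeR and rounded to 0.1. They are not read counts, so the depth behind a value is unknown and only the spread among animals shows the precision. Each group was compared with sham, 28 dpi with 14 dpi, and 42 dpi with 28 dpi, in a limma fit of log2(normalized CPM + 0.5) over all 29 animals and 16995 genes. Adjusted p values are Benjamini-Hochberg values over all these genes, fold changes are on this log2 scale, and intervals are 95% intervals. A gene passed the test at an adjusted p under 0.05, and a significantly differentially expressed gene (SDEG) also had a fold change above 1.5. Further fits took as a covariate either log2 Rn18s-rs5 or the length slope. Rn18s-rs5 is the 18S ribosomal RNA left in the library of each animal after depletion. The length slope, chosen after the values were seen, is a value per animal that is higher where shorter transcripts are lower on balance. The comparisons share the sham animals or the 28 dpi animals and are therefore not independent of each other.

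Markers of cervical position were detected in every animal. The summed level of the cervical Hox genes Hoxa5, Hoxb5, Hoxc5 and Hoxc6 lay between 47.8 and 69.4 normalized CPM, and the forebrain gene Neurod6 lay between 0.4 and 2.4. The 18S ribosomal RNA gene Rn18s-rs5 varied from 18300 to 818000 normalized CPM over all animals, from 30300 to 52900 in sham and from 44800 to 779000 at 28 dpi. Summed pituitary hormone mRNAs (Prl, Gh, Pomc) reached 0.7 normalized CPM in sham and up to 28.0 after stroke. The tissue is a mixture of cells, so fewer cells of a type and less RNA per cell cannot be told apart in any of the values that follow.

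Among sham animals, per kilobase of transcript, Mt1 had the highest level of the 7 genes. It reached 151 ± 41.5 normalized CPM per kilobase (SD, n = 5), followed by Mt3 with 122 ± 28.9 and Mt2 with 48.2 ± 13.7. Slc30a3 (7.27 ± 1.32), Slc39a14 (6.63 ± 0.279), Slc30a1 (3.72 ± 0.252) and Mtf1 (2.75 ± 0.29) were lower on this per-length scale. In this order Mt1 and Mt3 overlapped, as did Slc30a3 and Slc39a14, and the other neighbours did not. Levels per kilobase use the full transcript length, which understates short transcripts. The metallothioneins also varied more between animals. Over the 29 animals the highest value was 3.61 times the lowest for Mt1, 3.81 times for Mt2 and 3.14 times for Mt3, against 1.32 times for Slc30a1, 1.43 times for Slc39a14, 1.52 times for Mtf1 and 1.93 times for Slc30a3.

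Mt2 was lower at 28 dpi than in sham. The 5 sham animals had Mt2 values of 14.5, 25.7, 33.4, 22.1 and 27.4 normalized CPM. At 28 dpi the values were 18.1, 10.8, 19.2, 14.6 and 9.5, all under the second-lowest sham value, and 2 of 5 lay below the whole sham range. The 28 dpi mean of 14.4 ± 4.29 (SD, n = 5) compared with 24.6 ± 6.98 in sham, a log2 fold change of -0.75 ± 0.189 (SE, adjusted p = 0.00636, limma). Mt2 was the only SDEG among the 7 genes in this comparison. The call was lost with Rn18s-rs5 as a covariate (-0.62, adjusted p = 0.13) and with the length slope as a covariate (-0.29, adjusted p = 0.222). Of all genes tested, 4.64% were SDEGs at 28 dpi against sham.

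Mt1 was lower at 28 dpi as well. Sham animals had Mt1 values of 52.1, 84.8, 116.3, 80.4 and 80.9 normalized CPM, and 28 dpi animals had 66.4, 45.3, 79.9, 56.7 and 32.2. Every 28 dpi animal was below 4 of the 5 sham animals, and 2 lay below the sham range. The means were 56.1 ± 18.4 at 28 dpi and 82.9 ± 22.8 in sham (SD, n = 5 each). The log2 fold change was -0.58 ± 0.181 (SE, adjusted p = 0.0207, limma), which passed the test but lay just under the log2 fold limit of 0.585, so that Mt1 was not an SDEG. Mt1 did not pass in a fit of these 2 groups alone (adjusted p = 0.0895), with Rn18s-rs5 as a covariate (-0.40, adjusted p = 0.287) or with the length slope as a covariate (-0.11, adjusted p = 0.642).

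Mt3 did not pass the test at 28 dpi against sham. Its sham values were 45.7, 61.7, 83.6, 57.3 and 78.2 normalized CPM, and its 28 dpi values were 70.9, 40.4, 76.4, 49.8 and 33.2. The groups overlapped widely, with means of 54.1 ± 18.9 and 65.3 ± 15.5 (SD, n = 5 each). The log2 fold change was -0.31 with an interval from -0.67 to 0.06 (adjusted p = 0.207, limma). In all, 2 of the 7 genes fell and 0 rose at 28 dpi against sham. Among all genes, 13% fell and 11.9% rose by the same adjusted p.

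**Figure D1:**
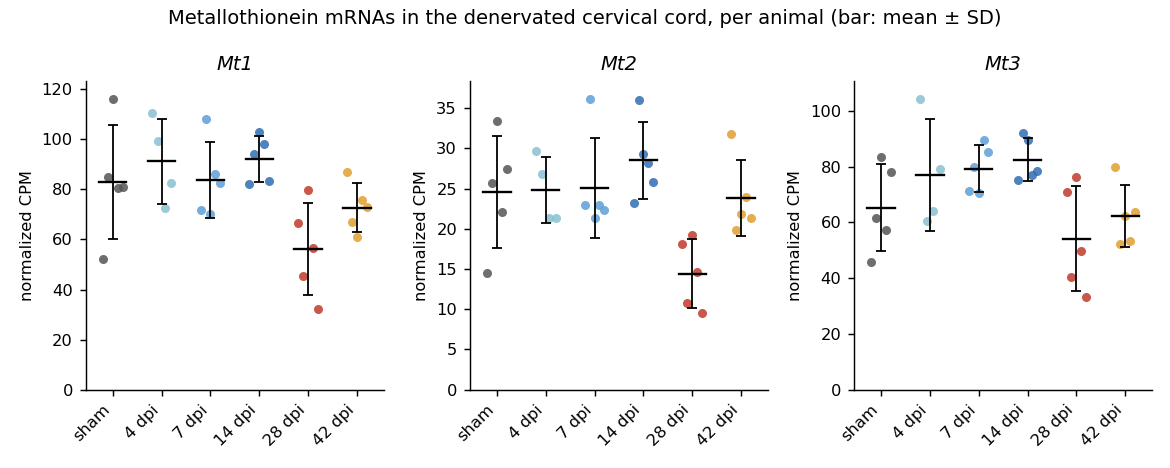
Normalized CPM of Mt1, Mt2 and Mt3 (y axis, from 0) in each animal by group (x axis). Points are animals, bars the mean ± SD. At 28 dpi Mt2 lies between 9.5 and 19.2, below all animals at 14 dpi and 42 dpi but overlapping sham.

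The difference was larger between 28 dpi and 14 dpi, and here it took in Mt3. At 14 dpi Mt2 was at 23.2, 36.0, 29.3, 28.2 and 25.8 normalized CPM, every value above every 28 dpi value. Mt2 fell by 0.99 on the log2 scale from 14 to 28 dpi (SE 0.189, adjusted p = 0.000167, limma). Mt1 was at 82.0, 94.3, 103.1, 98.0 and 83.4 at 14 dpi, again with no overlap with 28 dpi. It fell by 0.77 (SE 0.181, adjusted p = 0.00119). Mt3 was at 75.3, 92.1, 89.7, 77.0 and 78.3 at 14 dpi, and 4 of the 5 animals at 28 dpi were below that range. Mt3 fell by 0.67 (SE 0.179, adjusted p = 0.00351), so that all 3 metallothioneins were SDEGs. With the length slope as a covariate all 3 calls were lost, and the log2 differences were -0.19 for Mt2 (adjusted p = 0.609), 0.06 for Mt1 (adjusted p = 0.875) and 0.19 for Mt3 (adjusted p = 0.438). Without animal A3-3 or A4-4 at 28 dpi the Mt3 difference (-0.58 and -0.51) was under the fold limit, as it was with length and GC content corrected for (-0.57, adjusted p = 0.00233). SDEGs made up 11.8% of all genes between 28 and 14 dpi, and the values of the 5 animals of each group did not overlap for 22% of genes.

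Mt2 was higher again at 42 dpi. Its values there were 31.8, 19.9, 21.9, 23.9 and 21.3 normalized CPM, all above the highest 28 dpi animal. The log2 difference of 42 minus 28 dpi was 0.73 ± 0.189 (SE, adjusted p = 0.0423, limma), and Mt2 was an SDEG in a comparison where 0.224% of genes were SDEGs and 1.45% rose. Mt1 at 42 dpi had 86.9, 66.9, 60.9, 75.8 and 73.0, overlapping the highest 2 animals at 28 dpi. Its log2 difference was 0.43 with an interval from 0.06 to 0.8 (adjusted p = 0.168). Mt3 had 79.9, 52.1, 62.2, 53.3 and 63.8 at 42 dpi, with a log2 difference of 0.25 (interval -0.11 to 0.62, adjusted p = 0.424). The Mt2 call at 42 against 28 dpi was lost with the length slope (0.45, adjusted p = 0.106) or Rn18s-rs5 (0.71, adjusted p = 0.0603) as a covariate. It passed the test in 3 of 10 fits that each left out 1 animal, with adjusted p from 0.0132 to 0.149, and was lost without A3-3, A4-3 or A4-4 at 28 dpi and without A1-1, A1-2, A1-4 or A3-4 at 42 dpi.

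The earlier time points did not differ from sham by this test. Mt1 was at 110.7, 99.3, 72.6 and 82.6 normalized CPM at 4 dpi and at 71.7, 108.3, 70.1, 86.2 and 82.6 at 7 dpi, all within the sham range. Mt2 was at 29.7, 26.8, 21.4 and 21.4 at 4 dpi and at 22.9, 36.2, 21.3, 23.0 and 22.3 at 7 dpi. Mt3 was at 104.4, 60.3, 64.0 and 79.2 at 4 dpi and at 71.2, 79.7, 70.6, 89.4 and 85.3 at 7 dpi. The log2 differences of the 3 genes from sham lay between 0.05 and 0.23 at 4 dpi. They lay between 0.04 and 0.30 at 7 dpi, and for 14 dpi between 0.19 and 0.36. The largest was that of Mt3 at 14 dpi (0.36, interval 0.00 to 0.73, adjusted p = 0.433, limma). At 42 dpi the differences from sham were -0.15 for Mt1, -0.02 for Mt2 and -0.05 for Mt3. None of the 7 genes passed at 4, 7, 14 or 42 dpi against sham, and 1 of 7 had an unadjusted p under 0.05 in each of these comparisons, where 5.14%, 5.84%, 11.6% and 14.8% of all genes did. SDEGs made up 0.0941%, 0.0294%, 0.00588% and 0.0235% of all genes in these 4 comparisons.

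Ordered by group mean, Mt2 was highest at 14 dpi with 28.5 normalized CPM. The 7 dpi (25.1), 4 dpi (24.8), sham (24.6) and 42 dpi (23.8) groups followed, and 28 dpi (14.4) was lowest. Neighbouring groups in this order overlapped apart from 42 and 28 dpi. Mt1 (14, 4 and 7 dpi, sham, 42 and 28 dpi, from 92.2 to 56.1) and Mt3 (14, 7 and 4 dpi, sham, 42 and 28 dpi, from 82.5 to 54.1) had nearly the same order, with overlap between all neighbours. The ratio of Mt1 to Mt2 within an animal stayed between 2.62 and 4.19. Its mean was 3.39 ± 0.279 in sham, 3.86 ± 0.34 at 28 dpi and 3.09 ± 0.323 at 42 dpi (SD, n = 5 each).

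Mtf1, the zinc sensor that activates Mt1, Mt2 and Slc30a1, did not differ detectably between groups. Sham animals had Mtf1 values of 20, 21.8, 18.4, 24.3 and 20.4 normalized CPM, and 28 dpi animals had 19.0, 18.2, 20.1, 22.5 and 25.7. The log2 fold change was 0.00 with an interval from -0.18 to 0.19 (adjusted p = 0.984, limma). Across the other groups Mtf1 ranged from 16.9 to 22.0, and the difference of 28 from 14 dpi was 0.16 (interval -0.03 to 0.35, adjusted p = 0.154). The gene 1110065P20Rik, which overlaps Mtf1 on the other strand, fell by 0.66 at 28 dpi against sham (adjusted p = 0.0136, limma) and had a mean of 7.94 normalized CPM over all animals. What it contributes to the Mtf1 values was not tested.

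Slc30a1, the zinc exporter of the plasma membrane, had the smallest ratio of highest to lowest animal of the 7 genes. Its values were 20.5, 19.6, 17.7, 21 and 18.8 normalized CPM in sham and 17.7, 19.5, 17.3, 18.4 and 19.3 at 28 dpi, where 1 animal was below the sham range and the groups otherwise overlapped. The log2 fold change at 28 dpi was -0.08 (interval -0.21 to 0.05, adjusted p = 0.385, limma). This depended on the processing. With transcript length and GC content corrected for in every animal, Slc30a1 passed at 28 dpi against sham (-0.19, adjusted p = 0.0211) and against 14 dpi (-0.27, adjusted p = 0.000691, compared with -0.10 and 0.242 uncorrected). Its lowest group was 42 dpi, with 16.4, 16.6, 16.1, 19.1 and 17.8, where 3 of 5 animals were below the sham range. That difference of -0.18 (interval -0.31 to -0.04) had an unadjusted p of 0.0105 and an adjusted p of 0.191. The antisense gene 1700034H15Rik rose by 0.78 at 28 dpi (adjusted p = 0.0023) and had a mean of 3.45 normalized CPM over all animals, and its part in the Slc30a1 values was not tested.

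Slc30a3, which fills synaptic vesicles with zinc, was higher at the first 3 time points than in sham without passing the test. Sham animals had values of 15.1, 14.7, 14.2, 12.2 and 19.7 normalized CPM. The values were 15.1, 19.6, 17.6 and 20.6 at 4 dpi and 17.1, 16.3, 21.6, 19.1 and 20.1 at 7 dpi. At 14 dpi they were 17.7, 17.7, 15.8, 20.1 and 19.1, so that most animals of the 3 groups were above 4 of the 5 sham animals. The log2 differences from sham were 0.26 (SE 0.117), 0.31 (SE 0.111) and 0.26 (SE 0.111), with unadjusted p of 0.0321, 0.00831 and 0.0269 and adjusted p of 0.872, 0.791 and 0.394 (limma). At 28 dpi Slc30a3 was at 13.5, 11.2, 17.1, 13.2 and 15.4, with 4 of 5 animals below the 14 dpi range. It fell by 0.36 from 14 to 28 dpi (SE 0.111, adjusted p = 0.00993), short of the fold limit. The difference kept its size with Rn18s-rs5 as a covariate (-0.35, adjusted p = 0.0191). Slc30a3 no longer passed with the length slope as a covariate (-0.32, adjusted p = 0.311) or with every animal rescaled to the same sum (-0.61, adjusted p = 0.162). The summed level of the 10 neuronal markers was 2940 to 3090 at 14 dpi and 2270 to 2810 at 28 dpi, and all 10 were detected in every animal. Snap25 (from 1790 ± 56.0 to 1340 ± 201, SD, n = 5 each) and Tubb3 fell, Slc6a5 rose from 306 ± 40.8 to 414 ± 39.2, and the median log2 change was -0.05. Snap25 made up most of the lower sum, and the part of these markers in the Slc30a3 difference was not tested.

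Slc39a14, the importer, moved the other way between 14 and 28 dpi by a small amount. It was at 29.9, 27.4, 31.1, 30.6 and 31.1 normalized CPM at 14 dpi and at 31.4, 38.6, 34.0, 32.5 and 36.3 at 28 dpi, with no overlap. Slc39a14 rose by 0.20 (SE 0.0697, adjusted p = 0.0226, limma), and by 0.26 with quantile normalization (adjusted p = 0.00466) and 0.24 with median centring (adjusted p = 0.0132). With length and GC content corrected for, the difference was 0.03 (adjusted p = 0.695). It was 0.05 with the length slope as a covariate (adjusted p = 0.807) and 0.21 with Rn18s-rs5 (adjusted p = 0.0219). Without animal A5-3 at 14 dpi, or A3-3 or A4-4 at 28 dpi, Slc39a14 no longer passed, with adjusted p of 0.0726, 0.084 and 0.0553. Sham values of 33.0, 34.3, 31.4, 31.1 and 33.5 overlapped the 28 dpi group and met the 14 dpi group at 31.1, and the difference of 28 dpi from sham was 0.08 (interval -0.06 to 0.22, adjusted p = 0.428). Between 28 and 14 dpi, then, 4 of the 7 genes fell and 1 rose, where 21.9% of all genes fell and 21% rose.

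**Figure D2:**
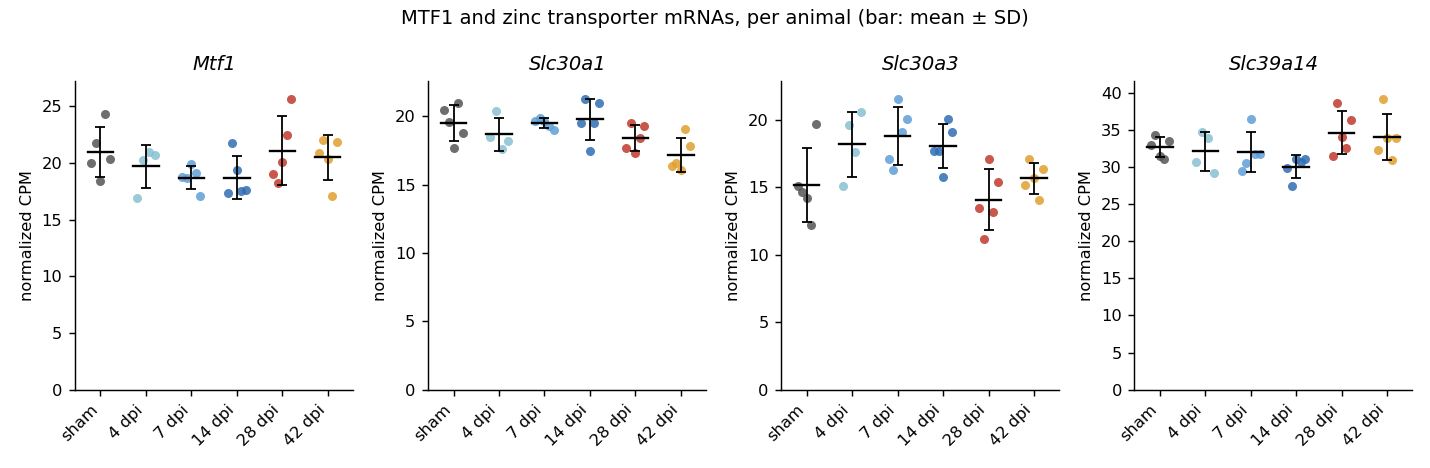
Normalized CPM of Mtf1, Slc30a1, Slc30a3 and Slc39a14 (y axis, from 0) in each animal by group (x axis). Points are animals, bars the mean ± SD. Slc39a14 at 28 dpi (31.4 to 38.6) lies above every animal at 14 dpi, while Mtf1 and Slc30a1 overlap between all groups.

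Of 21 further SLC30 and SLC39 genes, 18 were analysed. At 28 dpi against sham 5 of them fell and 1 rose (13% and 11.9% of all genes), none was an SDEG, and the median log2 change was -0.11 against -0.005 over all genes. Slc30a6, which works with SLC30A5 in the secretory pathway, fell the most, by 0.46 (SE 0.112, adjusted p = 0.0052, limma), from 5.72 ± 0.65 to 4.04 ± 0.623 normalized CPM (SD, n = 5 each). Slc30a9, the transporter gene with the highest mean value, was at 147 ± 4.69 in sham and 122 ± 4.71 at 28 dpi, and fell by 0.26 (SE 0.0501, adjusted p = 0.00149). Slc30a5 (-0.19, adjusted p = 0.0419), Slc39a3 (-0.20, adjusted p = 0.046) and Slc39a6 (-0.18, adjusted p = 0.0482) were the others that fell. The importer gene Slc39a8 rose by 0.29 (SE 0.102, adjusted p = 0.0361), from 4.04 ± 0.261 to 5.06 ± 0.297. Of the other transporters with high mean values, Slc39a12 had a log2 difference of -0.12 (adjusted p = 0.26) and Slc39a10 one of -0.09 (adjusted p = 0.344).

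Between 28 and 14 dpi 6 of the 18 transporters fell, 1 rose (21.9% and 21% of all genes) and none was an SDEG, with a median of -0.16. Slc30a9 (-0.30), Slc30a6 (-0.37), Slc39a3 (-0.21) and Slc39a6 (-0.21) fell, and so did Slc39a7 (-0.17), which releases zinc from the endoplasmic reticulum, and Slc39a11 (-0.30). Slc39a9 rose by 0.24 (adjusted p = 0.0152, limma). At 4, 7, 14 and 42 dpi against sham, and at 42 against 28 dpi, 0 of the 18 passed the limma test. At an unadjusted p under 0.05 the counts were 2, 1, 1, 5 and 3 of 18, against 5.14%, 5.84%, 11.6%, 14.8% and 21.1% of all genes.

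**Figure D3:**
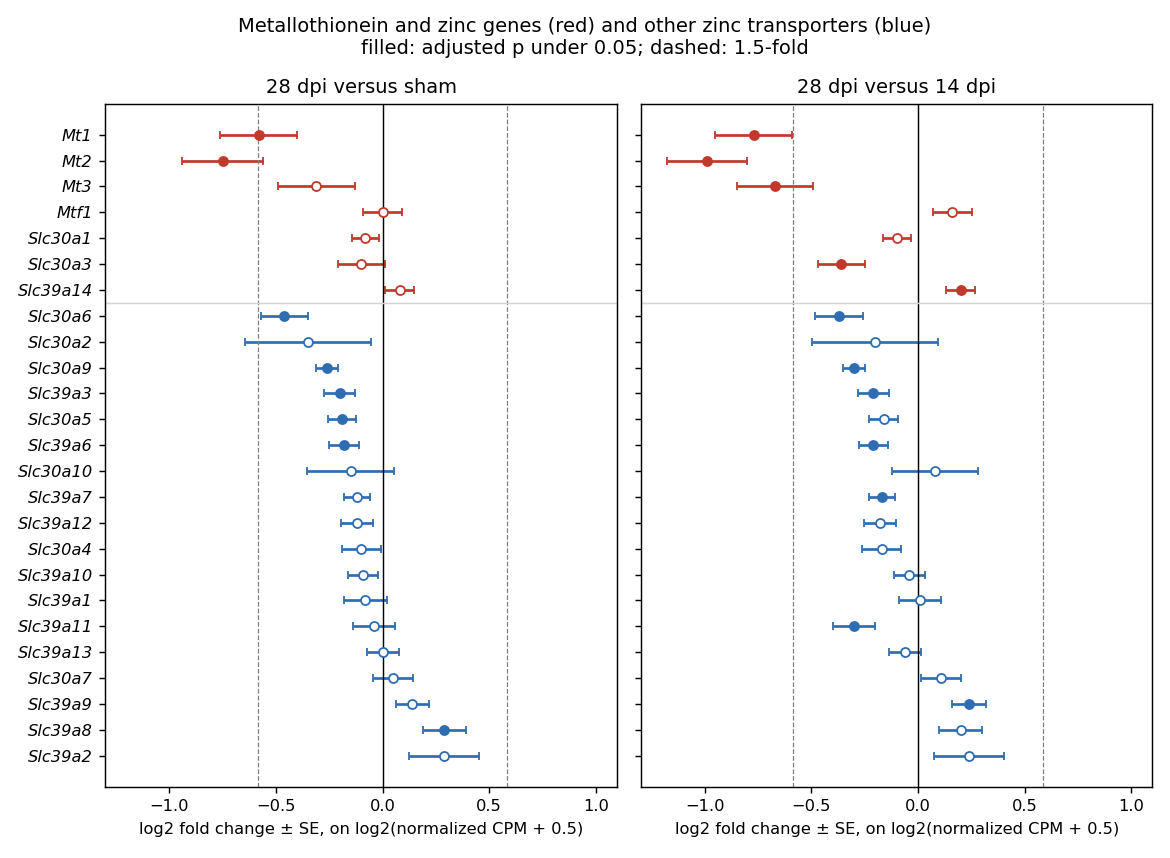
Log2 fold change ± SE (x axis) of the 7 genes (red) and 18 other zinc transporters (blue), at 28 dpi against sham (left) and against 14 dpi (right). Filled points have an adjusted p under 0.05, and dashed lines mark a 1.5-fold change. Mt1, Mt2 and Mt3 lie beyond every transporter on the right, where Mt2 reaches -0.99.

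Other genes that handle metals or share regulators with the metallothioneins were examined as lists, to be read against the 13% of all genes that fell and the 11.9% that rose at 28 dpi against sham. Of 22 copper and iron genes, 4 fell and 1 rose at 28 dpi against sham, with a median of -0.15 and no SDEG. The copper chaperone genes Atox1 (-0.49, adjusted p = 0.0403) and Cox17 (-0.48, adjusted p = 0.0406) and the ferritin light chain gene Ftl1 (-0.41, adjusted p = 0.027) fell. Of 5 genes reported as MTF1-dependent 0 passed the limma test and 3 had an unadjusted p under 0.05, as did 38.5% of all genes. Their log2 changes ran from -0.35 (Selenow, adjusted p = 0.0545) to -0.09 (Slc39a10, which is also counted among the transporters above). Ndrg1 in this list had -0.23 (adjusted p = 0.103). Of 12 glucocorticoid-responsive genes 5 fell, 0 rose and the median was -0.14. The kinase gene Sgk1 fell by 0.90 (SE 0.277, adjusted p = 0.0191), from 68.3 ± 31.2 to 35.9 ± 13.6 normalized CPM, and was an SDEG. The NF-kappaB inhibitor gene Nfkbia fell by 0.48 (adjusted p = 0.0184) and the stress gene Ddit4 by 0.46 (adjusted p = 0.0405). Of 6 oxidative stress genes 1 fell, Srxn1 (-0.24, adjusted p = 0.0236), while Hmox1 (-0.39, adjusted p = 0.0818) and Slc7a11 (0.25, adjusted p = 0.0772) did not pass.

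Astrocyte markers, given because astrocytes are a main source of Mt1 and Mt2, went in both directions. Of 10 markers 3 fell and 2 rose at 28 dpi against sham (13% and 11.9% of all genes), with a median of -0.14. The water channel gene Aqp4 (-0.26, adjusted p = 0.0116), Aldoc (-0.27, adjusted p = 0.0177) and Aldh1l1 (-0.20, adjusted p = 0.0377) fell. Sox9 rose by 0.70 (adjusted p = 0.00139, limma) and the glutamate transporter gene Slc1a2 by 0.29 (adjusted p = 0.0204), and S100b had -0.31 (adjusted p = 0.0963). The summed level of the 10 markers was 3800 to 4270 normalized CPM in sham, 3700 to 4140 at 14 dpi and 3970 to 4320 at 28 dpi, and no marker was near 0. Slc1a2 alone made up a large part of this sum, with 1970 ± 136 in sham and 2410 ± 233 at 28 dpi (SD, n = 5 each), and 7 of the 10 markers had a log2 change below 0. Of 5 oligodendrocyte markers 3 fell and 0 rose, and their sum was 5130 to 7800 in sham and 3740 to 5500 at 28 dpi. Against 14 dpi 4 of the 5 oligodendrocyte markers fell (median -0.33) and their sum at 14 dpi was 5220 to 6510. Of 6 microglia markers 3 fell and 0 rose against 14 dpi, with all 6 below 0 and a median of -0.38, and 1 rose against sham. Their sum was 95.4 to 108 in sham, 110 to 144 at 14 dpi and 91.3 to 126 at 28 dpi. Of the astrocyte markers 2 fell and 2 rose against 14 dpi (median -0.06). Among all genes 21.9% fell and 21% rose against 14 dpi. The part of any of these marker lists in the metallothionein differences was not tested.

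The metallothioneins varied together between animals of the same group. Relations were computed on log2 values after subtraction of the group means, with 100000 permutations within groups, over 29 animals and 21 pairs. Mt1 and Mt2 had Pearson's r = 0.91 and Spearman's rho = 0.883, and the permutation p of 1e-05 was the smallest that could be reached (adjusted p = 0.00021 for both). Mt1 and Mt3 had r = 0.806 (permutation p = 0.00011, adjusted p = 0.00077) and rho = 0.676 (p = 0.00139, adjusted p = 0.00973). For Mt2 and Mt3 they were 0.785 (permutation p = 5e-05, adjusted p = 0.000525) and 0.714 (p = 0.00037, adjusted p = 0.00388). Without the 2 animals farthest from the median of the first gene, r was 0.877, 0.715 and 0.817 in these 3 pairs. Mt3 and Slc30a1 went in opposite directions (r = -0.552, permutation p = 0.00413, adjusted p = 0.0217, rho = -0.564, p = 0.00511, adjusted p = 0.0268, r = -0.51 without the 2 farthest animals). This relation did not pass with length and GC content corrected for (r = -0.215, permutation p = 0.297, adjusted p = 0.694, rho = -0.267, p = 0.197, adjusted p = 0.59) or without the 28 dpi animals (r = -0.468, permutation p = 0.0447, adjusted p = 0.188, rho = -0.448, p = 0.0549, adjusted p = 0.231). Without the 28 dpi animals r of Mt3 with Mt1 (0.679, adjusted permutation p = 0.024) and with Mt2 (0.684, adjusted permutation p = 0.0138) still passed, and rho did not (0.534, adjusted p = 0.157, and 0.587, adjusted p = 0.0843). The other 17 pairs did not pass, among them Mt1 with Mtf1 (r = -0.351, permutation p = 0.14, adjusted p = 0.318, rho = -0.259, p = 0.238, adjusted p = 0.452) and Mt1 with Slc30a1 (r = -0.337, permutation p = 0.088, adjusted p = 0.231, rho = -0.249, p = 0.226, adjusted p = 0.452).

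**Figure D4:**
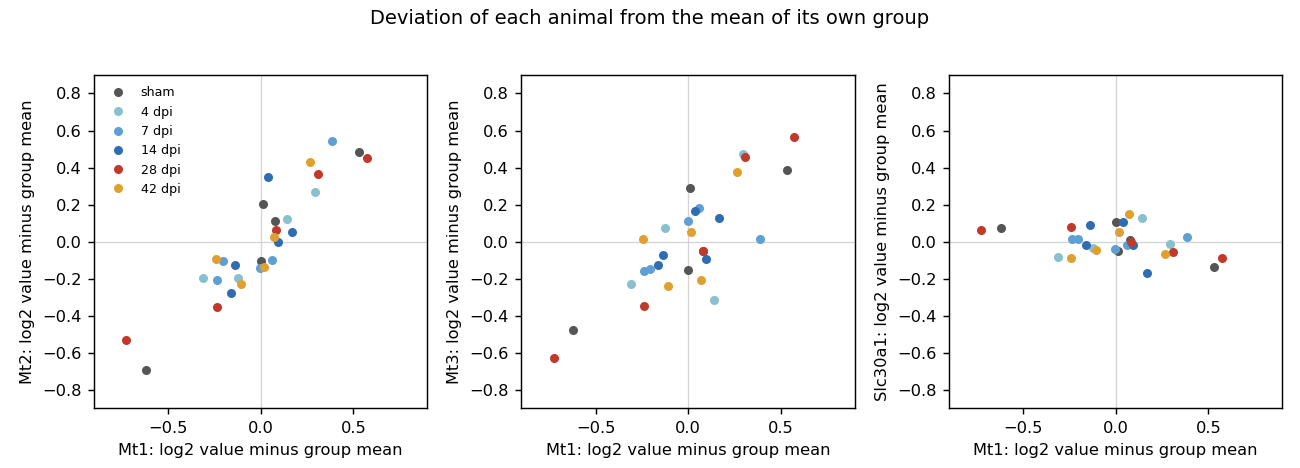
Deviation of each animal from the mean of its own group in log2 normalized CPM, for Mt1 (x axis) against Mt2, Mt3 and Slc30a1 (y axes). Points are animals coloured by group. Mt2 and Mt3 rise with Mt1 (r = 0.91 and 0.806), and Slc30a1 stays within a narrow band.

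Mt1 and Mt2 were each other's most similar gene among 11147 genes with a mean value of at least 5, with r = 0.931 over all 29 animals and 0.91 with group means subtracted. Mt3 ranked 193rd for Mt1 (r = 0.856) and 377th for Mt2 (r = 0.819). The genes next most similar to Mt1 were Tmsb4x (0.922) and Smdt1 (0.921), and those next to Mt2 were Ndufc2 (0.919) and Gm10053 (0.917). Within groups, Smdt1 (0.902) and Isca2 (0.881) followed for Mt1, and Smdt1 (0.875) and Ndufc2 (0.86) for Mt2. The genes most similar to Mt3 code for subunits of respiratory complexes, Cox6b1 (0.949), Atp5k (0.946) and Atp5o (0.945), with the same 3 within groups. For the remaining genes the highest r over all animals was 0.748 for Mtf1 (Specc1, then Traf3 and Nacc1), 0.628 for Slc30a1 (Gsn, then Gnb4 and Zfp651), 0.777 for Slc30a3 (Sdr39u1, then Nrsn2 and Slc29a1) and 0.768 for Slc39a14 (Homer2, then Larp1 and Cux1). Within groups the leading genes were Adcy3 (0.805), Specc1 and Maneal for Mtf1, and Frs2 (0.742), Gm21680 and Ctnna3 for Slc30a1. They were Hap1 (0.795), Nrsn2 and Lasp1 for Slc30a3, and Larp1 (0.689), Homer2 and Fam13c for Slc39a14. These correlations share the animals and the normalization of each library and are given as a description.

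The genes named as most similar to Mt1, Mt2 and Mt3 had short transcripts, from 371 to 946 nt, and the relation of expression to transcript length differed between animals. For each animal a slope was computed over genes, of its log2 value minus the mean of the gene on log2 transcript length, so that a positive slope means lower values for shorter transcripts on balance. The slope ranged from -0.06 to 0.058 in sham and from -0.064 to -0.024 at 14 dpi. The range was 0.0 to 0.111 at 28 dpi and -0.006 to 0.03 at 42 dpi. Among 28 dpi animals, A3-3, A4-3 and A4-4 had slopes of 0.079, 0.083 and 0.111 and Mt2 values of 10.8, 14.6 and 9.5 normalized CPM. Animals A3-1 and A4-1 had slopes of 0.0 and Mt2 values of 18.1 and 19.2, inside the sham range. The sham animal with the highest slope, A11-1 (0.058), had the lowest Mt1, Mt2 and Mt3 values of its group. Together with A3-3, A4-3 and A4-4 it made up the 4 highest slopes and the 4 lowest values of each metallothionein among all 29 animals.

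Within groups, the slope went with lower metallothionein values. The relation to Mt1 had r = -0.842 (permutation p = 6e-05, adjusted p = 0.00049) and rho = -0.71 (p = 0.00067, adjusted p = 0.00703). That to Mt2 had r = -0.787 (permutation p = 7e-05, adjusted p = 0.00049) and rho = -0.677 (p = 0.0011, adjusted p = 0.0077). That to Mt3 had r = -0.887 (permutation p = 1e-05, the smallest possible, adjusted p = 0.00021) and rho = -0.814 (p = 7e-05, adjusted p = 0.00147). Without the 2 animals farthest from the median slope r was -0.781, -0.709 and -0.868. Without the 28 dpi animals r still passed for all 3 genes (-0.804, -0.729 and -0.832, adjusted permutation p = 0.00514, 0.00553 and 0.00378), while rho passed for Mt3 (-0.754, adjusted p = 0.0195) and not for Mt1 (-0.643, adjusted p = 0.0511) or Mt2 (-0.584, adjusted p = 0.0677). These were the only 3 of 21 relations to pass, over 7 genes and 3 measures, the others being Rn18s-rs5 and the mean of the astrocyte markers. For Mt1 the astrocyte mean gave r = 0.354 (permutation p = 0.091, adjusted p = 0.261) and rho = 0.383 (p = 0.0585, adjusted p = 0.205), and Rn18s-rs5 gave r = -0.25 (permutation p = 0.223, adjusted p = 0.467) and rho = -0.194 (p = 0.352, adjusted p = 0.527).

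**Figure D5:**
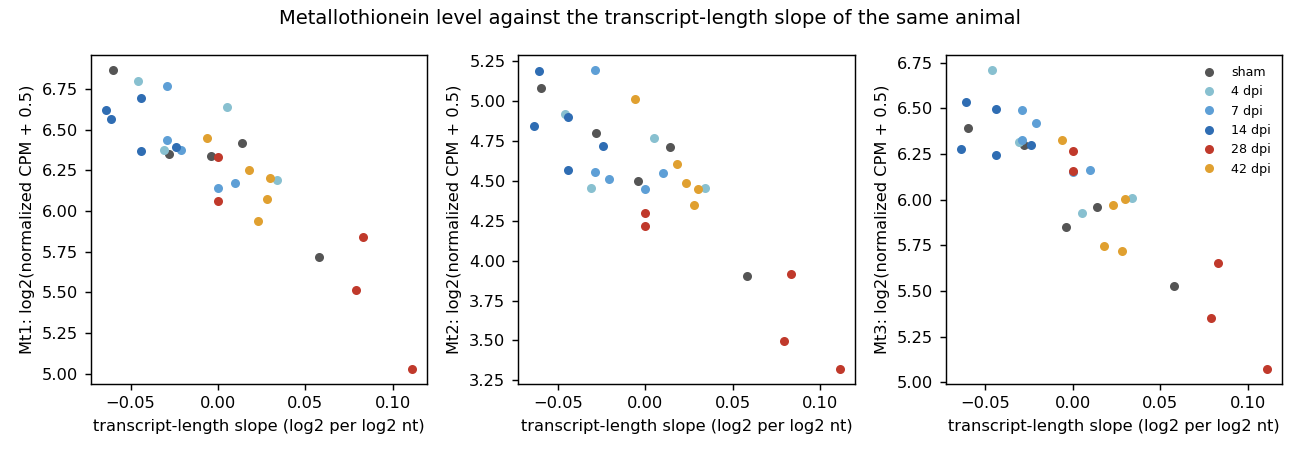
Log2(normalized CPM + 0.5) of Mt1, Mt2 and Mt3 (y axes) against the transcript-length slope of the same animal (x axis, log2 value per log2 nt). Points are animals coloured by group. The 3 animals at 28 dpi with slopes from 0.079 to 0.111 and the sham animal at 0.058 have the 4 lowest values of each gene.

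The mRNAs of 81 cytosolic ribosomal proteins, a list of short transcripts chosen after its values were seen, moved in the same direction. At 28 dpi against sham 59 fell and 0 rose, with a median of -0.46, where 13% of all genes fell. Against 14 dpi 76 fell and 0 rose, with a median of -0.76, where 21.9% of all genes fell. Their summed level was 3280 to 5360 normalized CPM in sham, 4880 to 6030 at 14 dpi and 2640 to 4370 at 28 dpi. Over genes under 300 nt the median log2 change was 0.06 at 28 dpi against sham and 0.30 against 14 dpi. In the 300 to 600 nt range, which holds the metallothioneins, it was -0.09 and -0.03, and over genes of 600 to 1200 nt it was -0.17 and -0.29. From there it was higher with each longer range, at -0.12 and -0.17 for 1200 to 2400 nt, 0.0 and 0.01 for 2400 to 4800 nt, and 0.12 and 0.21 for at least 4800 nt. After correction of every animal for transcript length and GC content by a smooth fit over genes, Mt2 fell by 0.68 (adjusted p = 0.00272, limma) and Mt1 fell by 0.50 (adjusted p = 0.0118) at 28 dpi against sham. The slope was itself higher at 28 dpi than at 14 dpi with no overlap, so the group and the slope cannot be told apart in that comparison, for which the fits with the slope as a covariate are given above.

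Rn18s-rs5, the 18S ribosomal RNA left after depletion, lay above the sham range in every 28 dpi animal but A4-1 and in every 42 dpi animal. Its level was not tested between groups. With log2 Rn18s-rs5 as a covariate no gene of the table was an SDEG at 28 dpi against sham in limma. At 28 dpi the animals other than A4-1 had 292000 or more, against at most 52900 in sham. Group and Rn18s-rs5 can therefore hardly be told apart in that comparison. Against 14 dpi, where both groups held animals with high Rn18s-rs5, Mt2 kept -0.95 (adjusted p = 0.000535), Mt1 -0.71 (adjusted p = 0.00352) and Mt3 -0.63 (adjusted p = 0.00842). The 14 dpi animals A5-3 and A6-3, with Rn18s-rs5 at 419000 and 818000, had Mt2 values of 36.0 and 25.8. The 28 dpi animal A4-1, at 44800 within the sham range of Rn18s-rs5, had Mt2 at 19.2 and Mt1 at 79.9. The unit in the sample labels (A1 to A12), whose nature the labels do not give, held animals of 1 group apart from A3. In A3 the 42 dpi animal had Mt2 at 21.3 and Mt1 at 73.0, and the 28 dpi animals had Mt2 at 18.1 and 10.8 and Mt1 at 66.4 and 45.3. Elsewhere unit and group cannot be told apart. Without A3-3 or A4-4 at 28 dpi or A12-1 in sham, Mt1 no longer passed the limma test at 28 dpi against sham (adjusted p = 0.0665, 0.0877 and 0.0891). Mt2 passed in 10 of 10 such fits that each left out 1 animal, with log2 differences from -0.92 to -0.62.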

How the data were processed

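Spinal cord RNA of 29 animals in 6 groups was analysed, with groups taken from the sample labels and the group labelled Ctrl read as sham from the study's methods. Of 30 labelled animals, 1 at 4 dpi has no column of values. The deposited table holds a score per gene and animal, which the authors made by quantifying reads with SALMON and Tximport (mm10), normalizing with edgeR 3.14.0 under R 3.4.1 and removing weakly expressed genes. These normalized CPM are not counts, so depth is unknown and no count model was used. The members and gene lists were chosen with earlier results of these data known. Values were taken as log2(value + 0.5) and fitted with limma 3.58.1 (R 4.3.3), with 1 mean per group and a mean-variance trend, and p values were adjusted over 16995 genes. The fit was tested on simulated data. Transcript lengths came from GENCODE M21 (99.6% of genes matched). Relations used Python 3.11.15 with numpy 2.4.6. Named genes were the 7 members, other zinc transporters that passed any test or had the 3 highest means, up to 3 genes per further list with the largest change at 28 dpi, and the genes most similar to a member. Overlapping genes, ribosomal protein genes, the other astrocyte markers that passed, 3 neuronal markers and the oligodendrocyte and microglia lists were reported after their values were seen. Alternatives were other pseudocounts (1, 0.05), a minimum mean of 1, other scalings, no trend, 2-group fits, covariates, a length and GC correction, the label unit as random block, other limits, and leaving out each animal. The length slope covariate and the ribosomal protein measure were chosen after seeing the data.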

Additional observations from a re-analysis of the deposited data

Results flagged for a closer look

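The steps from 14 to 28 and 28 to 42 dpi differed in a direct test, not only by separate calls against shared sham animals. Between 28 and 14 dpi the log2 differences were -0.77 for Mt1, -0.99 for Mt2, -0.67 for Mt3, -0.36 for Slc30a3 and 0.20 for Slc39a14. Between 42 and 28 dpi it was 0.73 for Mt2, which passed in 3 of 10 fits that each left out 1 animal. With the length slope as a covariate none of these differences passed. Group and slope cannot be told apart between 28 and 14 dpi. No cause of these differences was tested.

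Of 42 sets of 1 gene in 1 group tested for an animal far from the rest, 2 held one by Dixon's criterion, and chance gives about 1 in 20. Mt2 in the 7 dpi animal A7-3 was 36.2 normalized CPM, while the others lay between 21.3 and 23.0. Mtf1 in the 4 dpi animal A10-1 was 16.9, while the others lay between 20.3 and 21.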

How the results depend on the processing

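Counts are of SDEGs among the 7 genes. At 28 dpi against sham the count of 1 became 2 with a pseudocount of 0.05, with a random effect of the label unit and with no fold limit, and 0 with a fold limit of 2, with Rn18s-rs5 as a covariate and with the length slope as a covariate. Rescaling every animal to the same sum, ribosomal RNA included, moved the median of all genes by -0.725 and made it 7. Under that scaling Mtf1 (-0.77) and Slc39a14 (-0.70) were negative, both close to that shift. Between 28 and 14 dpi the count of 3 became 5 with no fold limit, where 7301 of 16995 genes passed. It became 2 with length and GC correction, and 0 with a fold limit of 2 or the slope covariate. Under the slope covariate Mt1 (0.06) and Mt3 (0.19) turned positive. With the same sum Slc39a14 was at -0.06, which is above the shift of all genes of -0.22 under that scaling. Between 42 and 28 dpi the count of 1 became 0 with an adjusted p under 0.01, a fold limit of 2, no trend, fits of only 2 groups, the same sum, Rn18s-rs5 or the slope as a covariate. Over all genes the 789 SDEGs at 28 dpi became 116 and the 2002 between 28 and 14 dpi became 2 with the slope covariate. Leaving out 1 animal gave counts of 1 to 2 (2 without A11-1, A3-1, A4-1 or A4-3), 2 to 3 and 0 to 1 in these 3 comparisons and 0 in the others. Among 18 other zinc transporters the count of 0 became 15 at 28 dpi with the same sum, which moved the median of all genes by -0.725. With no fold limit it became 6 at 28 dpi against sham, where 4230 of 16995 genes passed. Between 28 and 14 dpi it became 7 with no fold limit, where 7301 of 16995 genes passed. By Pearson's r, relations between members that passed numbered 4, and 3 without the 28 dpi animals or after length and GC correction, when Mt3 and Slc30a1 no longer passed. Relations with animal measures numbered 3 by r with and without the 28 dpi animals (by rho, 1 of each kind passed without them). The ribosomal protein mRNA mean gave 4 of 7. Of these, Slc30a1 no longer passed without the 28 dpi animals (r = -0.305, adjusted permutation p = 0.315). Of 1218 values of single genes under alternatives, 1177 kept their side of the test, 81 of these with a change of sign in values that never passed. No paired analysis was possible because animal names are not shared between groups. The unknown depth limits every value, and the cause of these moves was not tested.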
